A study of Mus musculus with 21 samples.

Results

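Expression of 10 germline and piRNA pathway genes was followed across mouse embryonic stem (ES) cells that had lost Trim71 or Ago2, or that expressed a peptide which blocks microRNA silencing. The set holds Piwil2, Tdrd12, Tdrd9, Mael, Ddx4, Dazl, Sycp3, Slc25a31, Prdm1 and Dppa3, 10 of the 22512 genes in the deposited table. The set was chosen by symbol, and it was selected on measured values: Tdrd12 was lower in both groups with edited Trim71. The Trim71KO against W and Trim71KO_empty against T6B_MUT values are therefore given as a description, without a test. TRIM71 is an RNA-binding protein that silences mRNAs, and AGO2 is an Argonaute, the class of protein that microRNAs guide to mRNAs. T6B is a peptide from the GW182 protein TNRC6B that binds Argonaute and displaces the GW182 proteins that microRNA silencing needs.

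All 7 groups, of 3 libraries each, came from 1 mouse ES cell line of the 129S6/SvEvTac strain. A reporter of TRIM71 binding (yGlob GFP_5xT71BS) is built into the line, which also stably expresses FLAG-Cas9::T2A::Blasticidin, so the control groups carry both too. Cells were kept on gelatin in serum with LIF. Experiment 1 held the untransfected parental cells (W), a Trim71-/- line (Trim71KO) and an Ago2-/- line (Ago2KO). Experiment 2 held parental cells transfected with the plasmid pCIP FH-T6B_WT::mCherry (T6B_WT) or with its mutant form, pCIP FH-T6B_MUT::mCherry (T6B_MUT), and the Trim71 and Ago2 lines transfected with an empty plasmid (Trim71KO_empty and Ago2KO_empty). The mutant peptide served as the control of Experiment 2, where no unedited cells with an empty plasmid were in the samples analysed here, so plasmid and genotype differed together. The labels do not give the number of clones behind an edited line. The series' design text calls the 3 replicates of each group biological.

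piRNAs are small RNAs that guide PIWI proteins to transposon transcripts in germ cells, where Tudor-domain proteins assemble the machinery that makes and amplifies them. In mouse ES cells many germline genes are held at low levels by DNA methylation and by the PRC1.6 complex, whose subunits MGA and MAX bind E-boxes and whose subunit E2F6 binds E2F sites. PIWI-guided silencing is best known from the male germline, and ES cells make part of its proteins without completing a germ cell program.

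The stretches of promoter with an E-box are shown because 5 members share this feature, which the choice of the set did not use. RefSeq (GRCm38.p6) gave a promoter of 300 bases, 250 before to 50 after the start, for 8 of the 10 members, with 2 entries for Tdrd12. Piwil2 and Dppa3 had no entry. The E-box CACGTG, which reads the same on both strands, was in 5 of the 9 entries, those of Mael, Slc25a31, Sycp3, Tdrd9 and Ddx4, against 7.15% of 32851 promoters of the same length. The E2F core TCCCGC or its reverse complement GCGGGA, which overlapped no E-box in these promoters, was in the promoters of 4 members (Mael, Slc25a31, Sycp3 and Ddx4), against 20.0% of all promoters. Neither motif was in the promoters of Tdrd12, Dazl or Prdm1. Both motifs contain the bases CG, and the shares over all promoters were not matched for CG content. Each window runs 5′ to 3′ on the gene's strand, and capitals mark the E-box.
Mael (chr1:166238950-166238979, minus strand): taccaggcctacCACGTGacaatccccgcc
Slc25a31 (chr3:40708766-40708795, plus strand): cgcaactggaaaCACGTGttatggtcacat
Sycp3 (chr10:88459511-88459540, plus strand): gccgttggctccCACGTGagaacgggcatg
Sycp3 (chr10:88459532-88459561, plus strand): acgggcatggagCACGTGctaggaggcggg
Tdrd9 (chr12:111971382-111971411, plus strand): ggtctccataaaCACGTGcctgtccaggtc
Tdrd9 (chr12:111971452-111971481, plus strand): gcacgaggctccCACGTGcatgcagggcct
Ddx4 (chr13:112652322-112652351, minus strand): ggcgtccgcccgCACGTGcagccgtttaag

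The E-box began 29 bases before the RefSeq start in Ddx4 and 223 bases before it in Mael, and Sycp3 and Tdrd9 each held 2. The Ddx4 window lies inside the GENCODE span of the gene given below, so it is upstream of the RefSeq start only. A match describes the letters and does not show that a protein binds there. Promoters also differed in CpG, the dinucleotide that DNA methylation acts on. Over all promoters the median was 7 CpG in 300 bases (quartiles 3 and 20). Ddx4 held 38, Dazl 28, Mael 24, Slc25a31 22, Prdm1 20, Sycp3 15, Tdrd9 10 and the Tdrd12 entries 9 and 11. The 30 bases before the RefSeq start are given for 1 of the 2 Tdrd12 entries and for Dazl, with CpG in capitals. Among the members with a promoter entry, these lay furthest apart in the Trim71 groups against their controls. Dppa3, which had no entry, lay below Tdrd12 in Trim71KO against W. All of the Tdrd12 bases and part of the Dazl bases lie inside the GENCODE gene spans given below, whose starts differ from those of RefSeq.
Tdrd12 (chr7:35537716-35537745, minus strand): tgctttctagccttctggagccctgtgCGc
Dazl (chr17:50293621-50293650, minus strand): aCGaggccagccaCGcacagtcatcccccc

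Because the study edits microRNA silencing, the longest annotated 3′ UTR of each member was searched for matches to bases 2 to 8 of microRNAs. These were of the ES cell families miR-290 and miR-302 and, apart from them, of let-7. The levels of these microRNAs were not measured here. Both ES cell families share a seed, printed in capitals.
mmu-miR-294-3p: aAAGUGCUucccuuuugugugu
mmu-miR-302b-3p: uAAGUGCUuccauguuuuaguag
mmu-let-7a-5p: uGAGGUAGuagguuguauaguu
The match to the shared ES cell seed is AGCACTT and that to the let-7 seed is CTACCTC. Of the 10 members, only Piwil2 held either, 1 match to AGCACTT at bases 190 to 196 after its stop codon (capitals).
Piwil2 site: cttttatcccAGCACTTgggagactga
Among 3135 UTRs of like length to the 1803 bases of this one, 19.6% held this match.

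The lowest and highest totals of deposited counts were 29.6 M and 50.8 M over the 9 libraries of Experiment 1, and 33.9 M and 57.9 M over the 12 of Experiment 2. Trim71 was at 602 to 618 CPM (counts per M of the TMM-scaled library size) in W and 412 to 459 in Trim71KO, and at 482 to 503 in T6B_MUT and 393 to 409 in Trim71KO_empty. Ago2 was at 134 to 153 CPM in W and 39.8 to 43.6 in Ago2KO. In the libraries labelled Ago2KO_empty, Ago2 was at 87.4, 166.5 and 45.6 CPM, against 112 to 143 in T6B_MUT. Replicate 2 thus goes against its label, and replicate 1 lay above every Ago2KO library, so that only replicate 3 was near their level. Over all 3, Ago2 differed from T6B_MUT by −0.30 (SE 0.38, edgeR adjusted p 0.601), against −1.76 (SE 0.07) for Ago2KO and W. Most tests, list counts and medians that rest on these libraries are given with and without replicate 2. The tests of Ago2 itself are given with all libraries only. The 7 pluripotency markers summed to at least 3459 CPM in every library. Of the germ-line neighbours' markers, the 3 somatic gonad genes with a row summed to 0.828 to 4.19 CPM and the 3 fibroblast genes with a row to 2.73 to 11.6 CPM. Prm1, Prm2, Tnp1, Tnp2 and Acrv1, markers of late spermatogenic cells, were not analysed here.

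All 10 members were detected in every group, at levels that spanned a wide range. In deposited RPKM, a level per gene length, Mael was highest in W at 16.2 (libraries 16.1 to 16.4), followed by Ddx4 at 10.1, Piwil2 at 7.20, Tdrd12 at 5.73 and Dazl at 4.78. Sycp3 (2.52 RPKM), Slc25a31 (1.89), Dppa3 (0.577), Prdm1 (0.310) and Tdrd9 (0.130) were lower. In W no neighbours in this order overlapped over the libraries. In Trim71KO_empty the order differed, with Dazl at 17.7 RPKM beside Mael at 17.3, whose libraries overlapped, and Tdrd12 at 1.63 RPKM, the seventh of the 10. In these bulk samples, fewer cells that express a gene and less RNA per cell cannot be told apart. Each member passed the filter on low counts in each fit. Groups of 3 libraries often did not overlap. Among all genes tested this held for 34.2% in Ago2KO, 42.1% in Ago2KO_empty and 39.3% in T6B_WT, each against its control. For Trim71KO the share was 44.3% against W and 44.7% against Ago2KO. For Trim71KO_empty it was 45.5% against T6B_MUT and 39.1% against Ago2KO_empty.

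**Figure D1:**
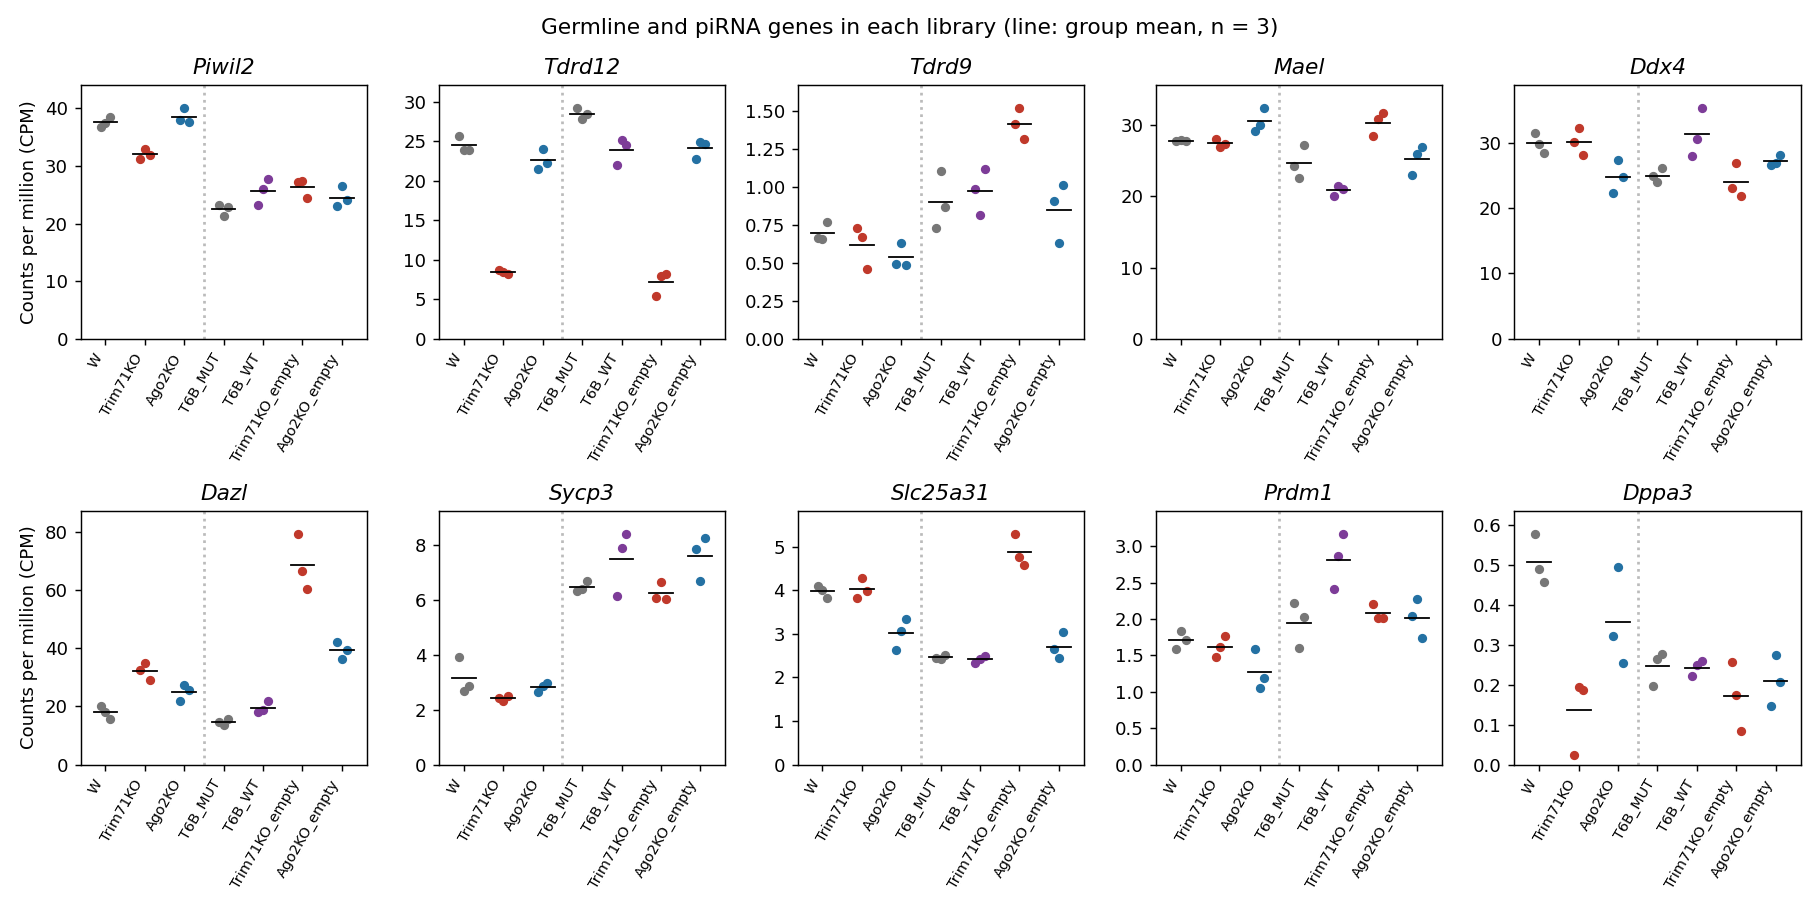
CPM (vertical axes, from 0) of the 10 genes in each of the 21 libraries, with 1 point per library, a line at the mean of each group of 3, and a dotted line between Experiments 1 and 2. Tdrd12 is low in both Trim71 groups and Dazl is highest in Trim71KO_empty.

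Tdrd12 (ENSMUSG00000030491; chr7:35469098-35537745, minus strand, GRCm38) encodes a Tudor-domain protein of secondary piRNA production. It was at 25.7, 23.9 and 23.9 CPM in W and at 8.71, 8.45 and 8.22 CPM in Trim71KO. In Experiment 2 it was at 29.2, 27.8 and 28.5 CPM in T6B_MUT and at 5.43, 7.94 and 8.20 CPM in Trim71KO_empty. Every library of the 2 Trim71 groups lay below every library of the other groups. The log2 difference was −1.54 (SE 0.07) for Trim71KO against W and −1.99 (SE 0.11) for Trim71KO_empty against T6B_MUT. These are the values that chose the set. It lay lower than in the Ago2 lines too, by a log2 difference of −1.42 (SE 0.07) against Ago2KO and −1.75 (SE 0.11) against Ago2KO_empty, or −1.72 without replicate 2 of the latter.

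Outside the Trim71 groups no difference of Tdrd12 from its control passed the test. It was at 21.5, 24.0 and 22.2 CPM in Ago2KO, overlapping W, with a log2 difference of −0.12 (SE 0.07; Benjamini-Hochberg adjusted p 0.237 by the quasi-likelihood test of edgeR, as below). In T6B_WT it was at 22.0, 25.1 and 24.5 CPM, below each T6B_MUT library, at −0.26 (SE 0.10, adjusted p 0.108, edgeR). In the libraries labelled Ago2KO_empty it was at 22.8, 24.9 and 24.7 CPM, also below each T6B_MUT library, at −0.24 (SE 0.10, adjusted p 0.0896, edgeR). Both passed when the compared groups were fitted alone (edgeR adjusted p 0.00402 for T6B_WT and 0.0273 for Ago2KO_empty) or in a fit of all 21 libraries (0.0474 and 0.0324). Over all alternatives the edgeR or DESeq2 adjusted p ran from 0.00402 to 0.292 for T6B_WT and from 0.0273 to 0.209 for Ago2KO_empty. Without replicate 2 of Ago2KO_empty the log2 difference was −0.28 (edgeR adjusted p 0.0768). A Gm18558 annotation overlaps Tdrd12 on the same strand.

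Piwil2 (ENSMUSG00000033644; chr14:70372477-70429383, minus strand) encodes MILI, the PIWI protein of fetal and adult male germ cells. It was at 36.7, 37.4 and 38.5 CPM in W, at 31.1, 33.0 and 31.9 CPM in Trim71KO and at 38.1, 40.0 and 37.6 CPM in Ago2KO. The Trim71KO libraries all lay below the other 6 of Experiment 1. Piwil2 was lower in Trim71KO than in Ago2KO, by a log2 difference of −0.27 (SE 0.05, edgeR adjusted p 0.00123), and the call held under every alternative. Against W the described difference was −0.23 (SE 0.05). In Experiment 2 the direction was the opposite: Piwil2 was at 27.3, 27.3 and 24.5 CPM in Trim71KO_empty and at 23.2, 21.4 and 22.9 CPM in T6B_MUT, a described log2 difference of 0.23 (SE 0.08). The difference between these 2 contrasts was not tested. Ago2KO against W (0.04, edgeR adjusted p 0.694), T6B_WT against T6B_MUT (0.19, 0.132) and Ago2KO_empty against T6B_MUT (0.12, 0.280; 0.05 and 0.745 without replicate 2) did not pass the test. Gm22725 and Gm24890 overlap Piwil2 on its strand.

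Tdrd9 (ENSMUSG00000054003; chr12:111971559-112068854, plus strand), an RNA helicase with a Tudor domain that partners the PIWI protein MIWI2, was the least abundant member per length in W. It was at 1.41, 1.52 and 1.31 CPM in Trim71KO_empty, above all other libraries of Experiment 2, which ran from 0.629 to 1.12 CPM. It rose in Trim71KO_empty relative to Ago2KO_empty, by a log2 difference of 0.73 (SE 0.23, edgeR adjusted p 0.0194), or 0.57 without Ago2KO_empty replicate 2. The call was lost without Trim71KO_empty replicate 2 (edgeR adjusted p 0.0550) and without Ago2KO_empty replicate 2 (0.0823), within a range of 0.0103 to 0.0823 over the alternatives. Against T6B_MUT the described log2 difference was 0.66 (SE 0.22), while Trim71KO against W gave −0.19 (SE 0.24) with overlapping libraries. No other tested comparison of Tdrd9 passed. Rd3l overlaps it on the opposite strand.

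Mael (ENSMUSG00000040629; chr1:166201201-166238747, minus strand) encodes Maelstrom, a protein of the germ cell nuage that is needed for transposon silencing. It was at 20.0, 21.4 and 21.1 CPM in T6B_WT and at 24.2, 22.6 and 27.3 CPM in T6B_MUT. The groups did not overlap, and Mael fell by 0.25 on the log2 scale (SE 0.08, edgeR adjusted p 0.0495). This call stood at the threshold. It was lost with DESeq2 (adjusted p 0.0526) and without T6B_WT replicate 1, 2 or 3 (edgeR adjusted p 0.146, 0.0825 and 0.0859) or T6B_MUT replicate 1 or 3 (0.0919 and 0.242), with 0.0104 to 0.242 over all alternatives. In Trim71KO_empty Mael was at 28.4, 30.9 and 31.8 CPM, and in Ago2KO_empty at 23.1, 26.0 and 26.9 CPM. It was higher in the former by a log2 difference of 0.26 (SE 0.08, edgeR adjusted p 0.0213; 0.29 and 0.0218 without Ago2KO_empty replicate 2). That call was lost without Trim71KO_empty replicate 3 (edgeR adjusted p 0.0657), without Ago2KO_empty replicate 1 (0.0943) and with these groups fitted alone (0.0590), in a range of 0.00523 to 0.0943. In Experiment 1 the described difference of Trim71KO from W was −0.02, with overlapping libraries. In Ago2KO, at 29.2, 30.0 and 32.4 CPM, every library lay above W, at 27.7, 27.9 and 27.7 CPM, but the log2 difference of 0.14 did not pass the test (edgeR adjusted p 0.120). The Trim71KO against Ago2KO difference of −0.15 missed the threshold (edgeR adjusted p 0.0539), and it passed without a filter on low counts (0.0489), with the CPM filter (0.0330) and without Ago2KO replicate 1 (0.0351), with 0.0330 to 0.217 over all alternatives.

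Dazl (ENSMUSG00000010592; chr17:50279395-50293636, minus strand), an RNA-binding protein that licenses germ cells and promotes translation of their mRNAs, was the member called higher in Ago2KO, Ago2KO_empty and T6B_WT alike. It was at 20.3, 18.0 and 15.8 CPM in W and at 21.8, 27.3 and 25.8 CPM in Ago2KO. It was at 14.5, 13.7 and 15.8 CPM in T6B_MUT, at 18.2, 18.7 and 22.0 CPM in T6B_WT and at 42.2, 36.2 and 39.5 CPM in Ago2KO_empty. None of the 3 treated groups overlapped its control, as also held for 34.2% of all genes in Ago2KO, 42.1% in Ago2KO_empty and 39.3% in T6B_WT.
Dazl rose in Ago2KO by a log2 difference of 0.47 (SE 0.11, edgeR adjusted p 0.00789), a call that held under every alternative. In T6B_WT it rose by 0.41 (SE 0.10, edgeR adjusted p 0.00938), and the call was lost without T6B_WT replicate 3 (0.0655) or T6B_MUT replicate 2 (0.0579), in a range of 0.000611 to 0.0655. In Ago2KO_empty it rose by 1.42 (SE 0.10, edgeR adjusted p 3.64e-08), and by 1.45 without replicate 2 (edgeR adjusted p 8.25e-09). The difference of Ago2KO_empty from T6B_MUT exceeded that of Ago2KO from W by 0.94 on the log2 scale (SE 0.16, edgeR adjusted p 0.00105 for the interaction), or by 1.00 without Ago2KO_empty replicate 2 (0.000886) and 0.87 without replicate 1. This call too held under every alternative, in a range of 3.40e-06 to 0.00647. Ago2 itself differed from its control by −0.30 in Ago2KO_empty and by −1.76 in Ago2KO, values whose own difference did not pass the test (edgeR adjusted p 0.0977). Dazl was the only member called in that interaction, where 2.13% of all 22258 genes were called (2.23% without Ago2KO_empty replicate 2).

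Dazl was higher still in the Trim71 groups, where the rule's contrasts allow a description only. It was at 32.6, 34.9 and 29.0 CPM in Trim71KO, a log2 difference of 0.83 (SE 0.10) from W. It was at 79.4, 66.5 and 60.4 CPM in Trim71KO_empty, a log2 difference of 2.23 (SE 0.10) from T6B_MUT. In each experiment the Trim71 libraries lay above all others. The Trim71 lines could be tested directly against the Ago2 lines, and Dazl was higher in Trim71KO than in Ago2KO by 0.37 (SE 0.10, edgeR adjusted p 0.0145). That call was lost without Trim71KO replicate 2 (0.0593) or Ago2KO replicate 1 (0.0600), in a range of 0.00421 to 0.0600. Trim71KO_empty exceeded Ago2KO_empty by 0.81 (SE 0.10, edgeR adjusted p 5.55e-06), and by 0.76 without Ago2KO_empty replicate 2 (1.12e-05).

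Ddx4 (ENSMUSG00000021758; chr13:112598333-112652475, minus strand), the mouse Vasa homolog, is a DEAD-box helicase of the nuage. It was at 31.5, 29.8 and 28.4 CPM in W and at 22.3, 27.3 and 24.8 CPM in Ago2KO, without overlap. Ddx4 fell by 0.28 on the log2 scale (SE 0.08, edgeR adjusted p 0.0223), and the call was lost without W replicate 1 or 2 (0.0642 and 0.0653) or Ago2KO replicate 1 or 3 (0.0961 and 0.0630), in a range of 0.00988 to 0.0961. With T6B_WT the direction was the other way. Ddx4 was at 27.9, 30.6 and 35.3 CPM in T6B_WT and at 24.8, 24.0 and 26.0 CPM in T6B_MUT, a rise of 0.33 (SE 0.09, edgeR adjusted p 0.0164). It was lost without T6B_WT replicate 3 (0.133) and T6B_MUT replicate 1 or 2 (0.0738 and 0.0858), in a range of 0.00279 to 0.133. The libraries labelled Ago2KO_empty, at 26.6, 26.9 and 28.1 CPM, gave 0.12 (edgeR adjusted p 0.312; 0.11 and 0.426 without replicate 2), so Ddx4 passed no test there. Ddx4 was higher in Trim71KO than in Ago2KO by 0.28 (SE 0.08, edgeR adjusted p 0.0105), which was lost without Trim71KO replicate 2 (0.0557) or Ago2KO replicate 1 (0.0548), in a range of 0.00364 to 0.0557. Trim71KO_empty against Ago2KO_empty gave −0.19 (edgeR adjusted p 0.127), which passed without Trim71KO_empty replicate 2 (0.0427, in a range of 0.0427 to 0.434). Without Ago2KO_empty replicate 2 it was −0.18 (edgeR adjusted p 0.172). The described differences in the Trim71 groups were near 0, at 0.01 (SE 0.08) and −0.06 (SE 0.09).

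Slc25a31 (ENSMUSG00000069041; chr3:40708855-40726096, plus strand) encodes the ADP/ATP carrier of mitochondria in male germ cells. It was at 4.11, 3.9995 and 3.83 CPM in W and at 2.63, 3.07 and 3.34 CPM in Ago2KO, without overlap. It fell by 0.40 on the log2 scale (SE 0.12, edgeR adjusted p 0.0266). The call was lost without W replicate 1, 2 or 3 (0.0661, 0.0773 and 0.0526) and without Ago2KO replicate 1 or 2 (0.114 and 0.0581), in a range of 0.0163 to 0.114. Trim71KO, at 3.81, 4.28 and 3.97 CPM, overlapped W and exceeded Ago2KO by 0.41 (SE 0.12, edgeR adjusted p 0.0130), which was lost without Trim71KO replicate 2 (0.0517) or Ago2KO replicate 1 (0.0672), in a range of 0.00796 to 0.0672. In Experiment 2 the contrast between the edited lines was larger. Slc25a31 was at 5.30, 4.76 and 4.58 CPM in Trim71KO_empty against 2.65, 2.44 and 3.04 CPM in Ago2KO_empty. The log2 difference was 0.85 (SE 0.13, edgeR adjusted p 4.86e-05), or 0.79 without Ago2KO_empty replicate 2 (0.000221), and it was called under every alternative. Against T6B_MUT, at 2.45, 2.42 and 2.51 CPM, the described difference of Trim71KO_empty was 0.99 (SE 0.13), while T6B_WT gave −0.03 (edgeR adjusted p 0.917).

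Sycp3 (ENSMUSG00000020059; chr10:88459569-88473236, plus strand), a component of the axial element of meiotic chromosomes, passed no test at the main settings. It ran from 2.31 to 3.90 CPM in Experiment 1 and from 6.03 to 8.40 CPM in Experiment 2, so the experiments differed more than the groups within them. Trim71KO_empty, at 6.07, 6.66 and 6.03 CPM, lay just below Ago2KO_empty, at 7.85, 6.68 and 8.23 CPM, with a log2 difference of −0.28 (SE 0.12, edgeR adjusted p 0.0828). Without Ago2KO_empty replicate 2 it was −0.35 and passed (edgeR adjusted p 0.0378, in a range of 0.0378 to 0.252). Chpt1 overlaps Sycp3 on the opposite strand.

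Prdm1 (ENSMUSG00000038151; chr10:44437177-44528501, minus strand) encodes BLIMP1, the repressor that specifies primordial germ cells. It was at 2.41, 2.87 and 3.17 CPM in T6B_WT and at 2.22, 1.61 and 2.03 CPM in T6B_MUT. The groups did not overlap, and Prdm1 rose by 0.52 on the log2 scale (SE 0.16, edgeR adjusted p 0.0333). The call was lost without T6B_WT replicate 2 or 3 (0.0981 and 0.153) and without T6B_MUT replicate 2 or 3 (0.160 and 0.0807), in a range of 0.0160 to 0.160. In Ago2KO it was at 1.58, 1.06 and 1.19 CPM, just below W at 1.59, 1.83 and 1.70 CPM, with a difference of −0.40 (SE 0.17, edgeR adjusted p 0.133). Without Ago2KO replicate 1 that difference was −0.59 and passed (edgeR adjusted p 0.0462, in a range of 0.0462 to 0.334). Prdm1 was near its control in the Trim71 groups, at −0.07 (SE 0.17) and 0.09 (SE 0.17).

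Dppa3 (ENSMUSG00000046323; chr6:122626410-122630272, plus strand), also named Stella, protects the maternal genome from loss of DNA methylation in the zygote and marks primordial germ cells. Its counts were low: 28, 23 and 22 reads in W, 1, 7 and 9 in Trim71KO and 15, 15 and 13 in Ago2KO. The Trim71KO libraries lay below all others of Experiment 1. The described log2 difference from W was −1.87 (SE 0.44). Against Ago2KO it was −1.30 (SE 0.48, edgeR adjusted p 0.0506), which missed the threshold. It passed with DESeq2 (adjusted p 0.0477), without Trim71KO replicate 2 or 3 (edgeR 0.0484 and 0.0408), without Ago2KO replicate 3 (0.0497) and in a fit of all libraries (0.0285), in a range of 0.0285 to 0.170. In Experiment 2 Dppa3 had 3 to 16 reads in each library and the groups overlapped, with a described −0.49 (SE 0.43) in Trim71KO_empty. No difference of Dppa3 in Experiment 2 was detectable at this depth.

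**Figure D2:**
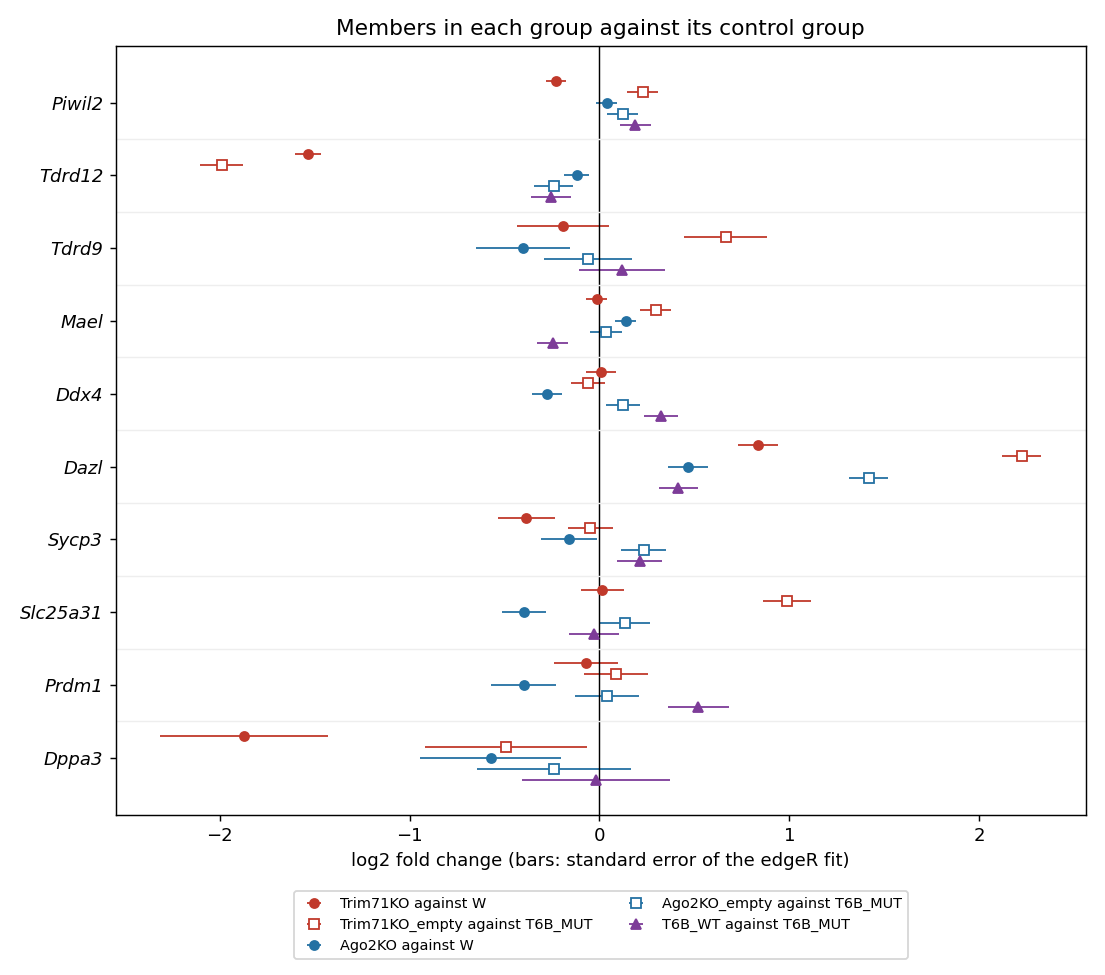
The log2 fold change of each gene (horizontal axis, bars 1 standard error of the edgeR fit) in 5 groups against their control groups, W in Experiment 1 and T6B_MUT in Experiment 2, with 3 libraries a group. Dazl lies to the right of 0 in all 5, and Tdrd12 lies near −1.54 and −1.99 in the Trim71 groups.

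Counted over the 10 members, the tested comparisons differed in the number called and in how it stood to the share over all genes. In Ago2KO against W, 1 member was called higher (Dazl) and 2 lower (Ddx4 and Slc25a31), where 10.2% of all 21210 genes tested were called higher and 7.78% lower (18.0% in all). In T6B_WT against T6B_MUT, 3 were called higher (Dazl, Ddx4 and Prdm1) and 1 lower (Mael), where 9.29% of 21505 genes were called higher and 6.69% lower (16.0% in all). Without T6B_WT replicate 3 the fit called 0 of the 10 by edgeR. In Ago2KO_empty against T6B_MUT only Dazl was called, with or without replicate 2, where 16.4% of all genes were called higher and 12.4% lower (28.8% in all, 23.7% without replicate 2). The share of the 10 called there was below the background. The shares in Ago2KO and T6B_WT were above it. Each call there, except that of Dazl in Ago2KO, was lost when 1 or another library was left out.

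Directly compared, the Trim71 and Ago2 lines differed in 4 of the 9 members tested in each experiment, Tdrd12 being left out because it chose the set. In Trim71KO against Ago2KO, Dazl, Ddx4 and Slc25a31 were higher and Piwil2 lower, where 34.2% of all genes were called, 17.1% in each direction. In Trim71KO_empty against Ago2KO_empty, Dazl, Slc25a31, Tdrd9 and Mael were higher, where 14.7% of all genes were called higher and 16.9% lower (31.6% in all, 27.6% without Ago2KO_empty replicate 2). Without Ago2KO_empty replicate 2 the latter count was 4 as well, with Sycp3 called and Tdrd9 not. Counts of 4 in 9 lie near these backgrounds. In the contrasts of the rule the members are described by the overlap of libraries. In Trim71KO, 1 member lay above every W library (Dazl) and 4 below (Tdrd12, Piwil2, Sycp3 and Dppa3). Of all genes, 44.3% did not overlap there. In Trim71KO_empty, 5 lay above every T6B_MUT library (Dazl, Slc25a31, Tdrd9, Mael and Piwil2) and 1 below (Tdrd12). Of all genes, 45.5% did not overlap there. Nothing is read from these last counts, since the set was selected on these contrasts. Comparisons within an experiment share their control libraries.

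The members did not follow Tdrd12 as a group. Across the 21 libraries, with log2 CPM centred within each experiment, Pearson's r with Tdrd12 was −0.81 for Slc25a31 and −0.80 for Dazl, −0.56 for Tdrd9 and −0.43 for Mael. It was 0.60 for Dppa3, 0.54 for Sycp3, 0.17 for Ddx4, 0.08 for Piwil2 and −0.03 for Prdm1. The genes most like Tdrd12 by this measure, among 12877 compared, were Pim1 (r 0.97), Glipr2 (0.97), Fam149b (0.97), Dnmt3a (0.97) and Rfc5 (0.97). Glipr2 went from 26.6 CPM in W to 7.14 in Trim71KO and from 30.8 in T6B_MUT to 9.81 in Trim71KO_empty. Dnmt3a, a DNA methyltransferase of de novo methylation, went from 264 to 109 CPM and from 107 to 48.9 CPM in the same groups. Rfc5 had the same pattern at a smaller size, from 224 to 189 CPM and from 212 to 161 CPM. The libraries share groups, so the coefficients describe the group pattern and carry no p-value.

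**Figure D3:**
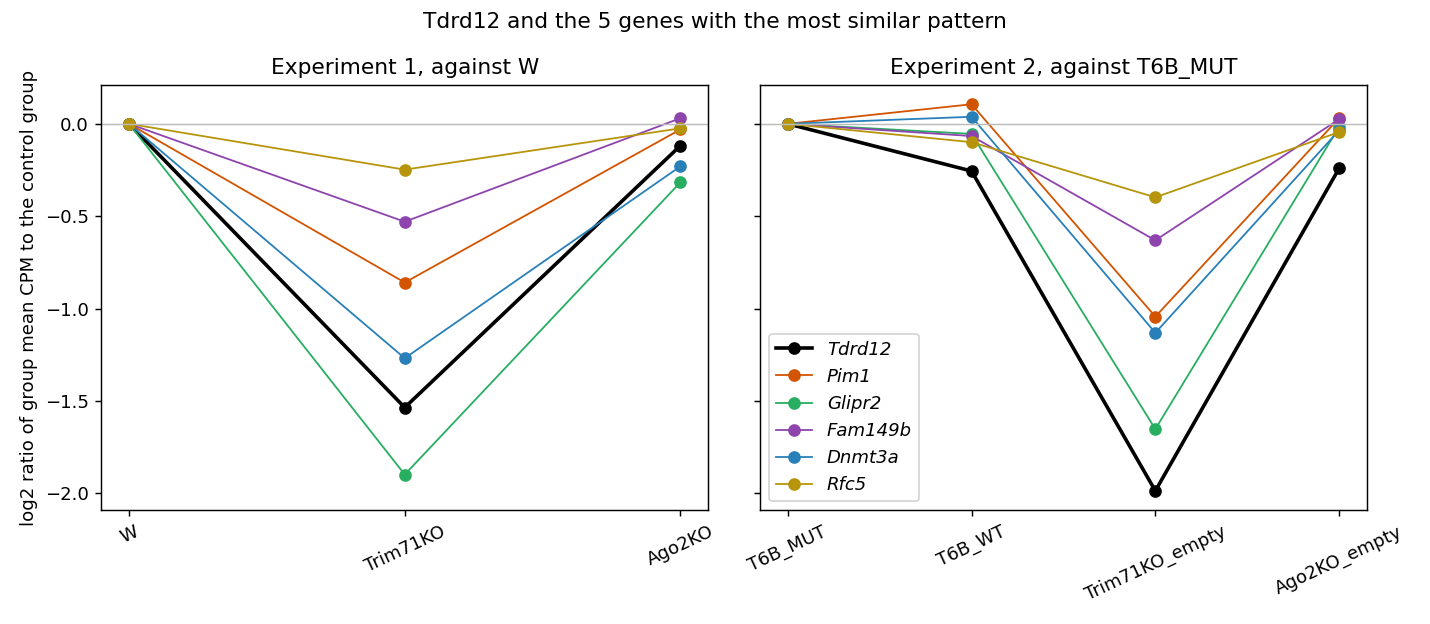
The log2 ratio of the group mean CPM to the control group (W on the left, T6B_MUT on the right) for Tdrd12 and the 5 genes with the highest correlation to it over 21 libraries. Each line dips in the Trim71 group of each experiment and lies closer to 0 in the other groups.

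Other genes of the piRNA pathway, from a list of 22 of which 21 had a row, moved in both directions. In Ago2KO 1 of 20 tested was called higher and 4 lower, beside 18.0% of all genes called. Among the latter were Fkbp6, a co-chaperone of piRNA loading (−1.16, SE 0.21), Tdrd1, a Tudor-domain partner of MILI (−0.73, SE 0.12), and Mov10l1, the helicase that feeds piRNA precursors into processing (−0.56, SE 0.08; from 14.9 ± 1.16 to 10.1 ± 0.291 CPM, SD, n = 3). In Ago2KO_empty 3 of 21 were higher and 4 lower (4 and 4 without replicate 2), beside 28.8% of all genes, with Morc1, a factor of transposon silencing in germ cells, higher (0.58, SE 0.07; 0.59 without replicate 2) and Piwil4, which encodes the nuclear PIWI protein MIWI2, lower (−0.81, SE 0.21; −0.97 without it). Those counts fell to 1 higher without T6B_MUT replicate 1 and to 2 lower without Ago2KO_empty replicate 1. Mov10l1 was the only gene of this list called in the interaction, beside 2.13% of all genes. Its difference from the control was 0.77 higher in Ago2KO_empty than in Ago2KO (SE 0.13), or 0.69 higher without replicate 2. In T6B_WT 2 of 21 were higher (Tdrd7, 0.53, and Mybl1, 0.28) and 1 lower (Rnf17, −0.22), beside 16.0% of all genes. Tdrd7 and Mybl1 lost their calls without any 1 of the 6 libraries, and Rnf17 without any but T6B_WT replicate 3. The list's median log2 difference was −0.04 in Ago2KO, −0.04 in Ago2KO_empty (−0.06 without replicate 2) and 0.08 in T6B_WT, beside 0.00, 0.03 and 0.01 over all genes. In the contrasts of the rule, 4 were called higher and 8 lower of 20 in Trim71KO, beside 32.6% of all genes. In Trim71KO_empty 7 were higher and 3 lower of 21, beside 27.8%.

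Trim71KO against Ago2KO called 7 genes of the piRNA list higher and 6 lower of 20, beside 34.2% of all genes. Exd1, a subunit of a piRNA biogenesis complex, was lower (−0.84, SE 0.13), as was Tdrd7 (−1.04, SE 0.17), and Fkbp6 was higher (0.79, SE 0.22; not called without Ago2KO replicate 1, edgeR adjusted p 0.0506, in a range of 0.00698 to 0.0506). Trim71KO_empty against Ago2KO_empty called 4 higher and 5 lower of 21, beside 31.6% of all genes. The lower count was 3 without Ago2KO_empty replicate 2 and 2 without Trim71KO_empty replicate 2. Fkbp6 (1.55, SE 0.26), Gpat2, a partner of MILI (1.29, SE 0.12; 11.2 ± 0.865 against 4.58 ± 0.245 CPM, SD, n = 3), and Piwil1 (1.13, SE 0.28) were higher. Without Ago2KO_empty replicate 2 these differences were 1.71, 1.34 and 1.17, all still called.

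The list of 20 other germ cell genes, 17 with a row, was called higher more often than lower in Ago2KO, Ago2KO_empty and T6B_WT. In Ago2KO 8 of 17 were higher and 1 lower, in Ago2KO_empty 9 and 1 (9 and 0 without replicate 2), and in T6B_WT 6 and 0, beside 18.0%, 28.8% and 16.0% of all genes. The 1 lower call was lost in Ago2KO without any library of either group but Ago2KO replicate 3. In Ago2KO_empty it was also lost without T6B_MUT replicate 1 or 3 or Ago2KO_empty replicate 1, and 3 genes were lower without Ago2KO_empty replicate 3. Its median log2 difference was 0.07, 0.32 (0.33 without replicate 2) and 0.31, beside 0.00, 0.03 and 0.01 over all genes. Kit, the receptor of stem cell factor, rose in each: by 0.94 in Ago2KO (SE 0.05; 48.8 ± 1.72 to 93.4 ± 2.17 CPM, SD, n = 3), by 1.12 in Ago2KO_empty (SE 0.11; 0.91 without replicate 2) and by 0.95 in T6B_WT (SE 0.11). Sohlh2, an early oogenesis and spermatogenesis factor, rose by 0.57 in Ago2KO (SE 0.05) and by 0.81 in Ago2KO_empty (SE 0.08; 0.80 without replicate 2). Ifitm3, a surface marker of primordial germ cells, rose by 0.53 in Ago2KO (SE 0.08) and by 0.61 in T6B_WT (SE 0.09), and Prdm14, a factor of primordial germ cells and naive ES cells, rose by 0.47 in T6B_WT (SE 0.07). All 17 passed the filter on low counts in these ES cells. Against the Ago2 lines, the Trim71 lines were lower in Ifitm3 (−1.07, SE 0.08, and −1.55, SE 0.09; −1.60 without Ago2KO_empty replicate 2) and in Tfap2c (−0.97, SE 0.07, and −1.04, SE 0.07; −1.01 without it), the AP-2 factor of primordial germ cells. Sohlh2 went the other way and was higher in Trim71KO than in Ago2KO (0.89, SE 0.05). The counts were 4 higher and 8 lower of 17 in Experiment 1, beside 34.2% of all genes. They were 5 and 6 in Experiment 2 with or without Ago2KO_empty replicate 2, beside 31.6% (27.6% without it). Taf7l was the only gene of this list called in the interaction (1.12, SE 0.18), beside 2.13% of all genes. Without Ago2KO_empty replicate 2 its value was 1.20 and 2 genes of the list were called, as also without replicate 3. In the contrasts of the rule the counts were 6 and 8 in Trim71KO and 6 and 5 in Trim71KO_empty, beside 32.6% and 27.8% of all genes.

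Other meiosis genes, 21 of 22 with a row, were called higher in 4 and lower in 3 of 19 in Ago2KO, 9 and 3 of 21 in Ago2KO_empty (6 and 2 without replicate 2), and 5 and 1 of 21 in T6B_WT, beside 18.0%, 28.8% and 16.0% of all genes. In T6B_WT the higher count fell to 3 without T6B_WT replicate 2 or 3 or T6B_MUT replicate 1 or 2. The medians were −0.04, 0.33 (0.26 without Ago2KO_empty replicate 2) and 0.02. Smc1b, the meiotic cohesin subunit, rose in each, by 0.81 in Ago2KO (SE 0.08), 1.23 in Ago2KO_empty (SE 0.11; 1.21 without replicate 2) and 0.66 in T6B_WT (SE 0.11). Hormad1, an axis protein, rose by 1.16 in Ago2KO_empty (SE 0.11; 1.13 without replicate 2) and by 0.59 in T6B_WT (SE 0.11), and its relative Hormad2 fell by 0.89 in Ago2KO (SE 0.11). Hormad2 was higher in the Trim71 lines than in the Ago2 lines, by 1.81 in Experiment 1 (SE 0.10; 9.43 ± 0.638 against 2.71 ± 0.220 CPM, SD, n = 3) and 1.87 in Experiment 2 (SE 0.13; 1.83 without Ago2KO_empty replicate 2). Stra8, the gatekeeper of meiotic entry (−1.49, SE 0.10), and Meioc (−0.97, SE 0.08) were lower in Trim71KO than in Ago2KO. The direct comparisons called 3 higher and 5 lower of 19 in Experiment 1, beside 34.2% of all genes. In Experiment 2 they called 4 and 11 of 21 (4 and 9 without Ago2KO_empty replicate 2), beside 31.6%. The contrasts of the rule gave 2 and 4 of 19 in Trim71KO, beside 32.6%. They gave 6 and 4 of 21 in Trim71KO_empty, beside 27.8%. In the interaction 4 were called, and 4 also without Ago2KO_empty replicate 2, beside 2.13% of all genes. For all 4 the difference from the control was higher in Ago2KO_empty than in Ago2KO. Among them were the synaptonemal complex genes Sycp2 (0.96, SE 0.19), Sycp1 (0.90, SE 0.19) and Syce1 (0.77, SE 0.11). Without Ago2KO_empty replicate 2 these were at 0.94, 0.96 and 0.83. Sycp2 was itself called lower in Ago2KO against W (−0.57, SE 0.14). That call was lost without Ago2KO replicate 3 (edgeR adjusted p 0.0693).

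The PRC1.6 complex, listed with 14 genes that all had a row, had 0 members called higher and 2 lower in Ago2KO, 2 and 3 in Ago2KO_empty (0 and 4 without replicate 2) and 0 and 2 in T6B_WT, beside 18.0%, 28.8% and 16.0% of all genes. The 2 calls higher in Ago2KO_empty were also lost without T6B_MUT replicate 1 or 2 or Ago2KO_empty replicate 1, and 1 was left without T6B_MUT replicate 3. In T6B_WT 1 lower call was left without T6B_WT replicate 1 or 2 or T6B_MUT replicate 1 or 3. Tfdp1, the partner of E2F6, fell in each, by 0.33 in Ago2KO (SE 0.04), 0.60 in Ago2KO_empty (SE 0.07; by 0.63 without replicate 2) and 0.48 in T6B_WT (SE 0.07). Mga, which binds E-boxes with MAX, was at 514 ± 122 CPM in Ago2KO_empty and 373 ± 20.7 CPM in T6B_MUT (SD, n = 3), groups that overlapped, and its call (0.46, SE 0.15, edgeR adjusted p 0.0457) was lost without any 1 library of these groups but Ago2KO_empty replicate 3. Without replicate 2 of Ago2KO_empty it was 0.31 (edgeR adjusted p 0.146, the highest of the alternatives, which began at 1.42e-05). Against the Ago2 lines, Hdac2 was higher in both Trim71 lines (0.69, SE 0.05, and 0.52, SE 0.07; 0.48 without Ago2KO_empty replicate 2) and L3mbtl2 lower in Trim71KO (−0.33, SE 0.05). The direct comparisons called 3 higher and 2 lower in Experiment 1, beside 34.2% of all genes. In Experiment 2 they called 6 and 3, beside 31.6%. Those counts were 5 and 2 without Ago2KO_empty replicate 2, and 1 was lower without Trim71KO_empty replicate 1 or 3. The contrasts of the rule gave 4 and 3 in Trim71KO, beside 32.6%, and 3 and 4 in Trim71KO_empty, beside 27.8%.

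**Figure D4:**
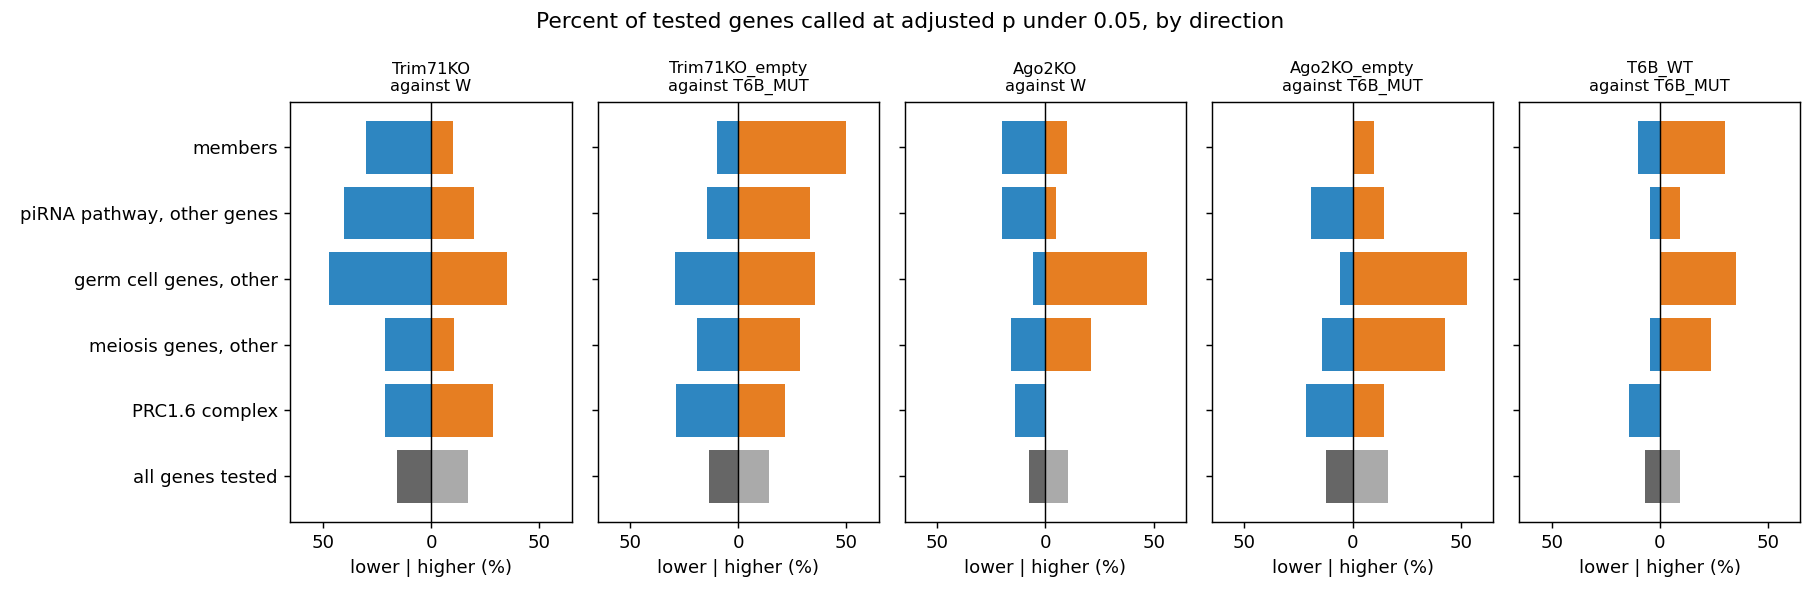
Percent of tested genes called at an edgeR adjusted p under 0.05 (horizontal axes, lower to the left and higher to the right) for the 10 members, 4 gene lists and all genes, in 5 groups against their controls. The germ cell list leans to higher in Ago2KO, Ago2KO_empty and T6B_WT. The 2 panels on the left show the contrasts that chose the members, so nothing is read from the members' bars there.

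Markers of other ES cell states moved with the groups. The 5 markers of 2-cell-like cells summed to 10.7 to 12.2 CPM in W, 0.502 to 1.02 in Trim71KO and 2.25 to 2.78 in Ago2KO, and all 4 that could be tested were called lower in both edited lines. In Experiment 2 they summed to 14.9 to 16.0 CPM in T6B_MUT, 70.95 to 73.4 in T6B_WT, 15.3 to 16.4 in Trim71KO_empty and 51.1 to 62.0 in Ago2KO_empty, with 5, 0 and 4 of 5 called, all higher (also 4 in Ago2KO_empty without replicate 2, whose sum was the 51.1). The 7 primitive endoderm markers summed to 49.4 to 50.9 CPM in W, 5.14 to 5.66 in Trim71KO and 11.5 to 13.5 in Ago2KO, and to 30.0 to 30.8 CPM in T6B_MUT, 24.5 to 28.0 in T6B_WT, 9.23 to 10.2 in Trim71KO_empty and 17.8 to 26.7 in Ago2KO_empty. Of the 7, all were called lower in Trim71KO and in Ago2KO, 6 in Trim71KO_empty, 4 in Ago2KO_empty (6 without replicate 2, whose sum was the 26.7) and 0 in T6B_WT. Of all genes, 15.6% were called lower in Trim71KO, 7.78% in Ago2KO, 13.4% in Trim71KO_empty, 12.4% in Ago2KO_empty (11.2% without replicate 2) and 6.69% in T6B_WT. Those called higher were 9.29% in T6B_WT, 14.4% in Trim71KO_empty and 16.4% in Ago2KO_empty (12.4% without replicate 2). The 7 pluripotency markers were highest in the Trim71 lines, at 4485 to 4894 and 4470 to 4633 CPM. No marker with a row was at 0 in every library of a group. Tdrd12 was low in both Trim71 groups, while the 2-cell-like markers were below their control in Trim71KO and overlapped it in Trim71KO_empty. In both Trim71 groups the summed primitive endoderm markers were below their control and the summed pluripotency markers above it. Dazl was higher than its control in Ago2KO, where the 2-cell-like markers were lower, and in Ago2KO_empty and T6B_WT, where they were higher. The summed primitive endoderm markers were below their control in each of these groups, with 0 called in T6B_WT. The part of these states in the results was not tested.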

How the data were processed

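Total RNA libraries of 21 samples were sequenced by the authors, who deposited 1 table of raw read counts and RPKM values for 22512 genes. Per the file headers, the deposited counts are raw and were not normalized, and the deposited RPKM values are scaled by gene length and library size. RPKM was used only to compare levels between genes. The submitters' processing notes name bcl2fastq 2.17, STAR 2.7.3a, GRCm38 and mm10. Whether strand was used in counting is not given in the sources used here, so a gene and one that overlaps it may share reads. Raw counts were tested in R 4.3.3 with edgeR 4.0.16 (TMM, filterByExpr with a minimum count of 10, robust quasi-likelihood F test, two-sided), each experiment fitted with all its groups. p-values were adjusted by Benjamini-Hochberg over all genes tested, and a call is an adjusted p under 0.05. The interaction used all 21 libraries. The SE of a log2 fold change is its absolute value divided by the square root of the F statistic of its edgeR test. CPM uses TMM-scaled library sizes. No pair of replicates differed by less than sampling noise (chi-square per degree of freedom 3.54 or more).

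Beside the 10 members, Trim71 and Ago2, the text names up to 3 called genes of each list and tested comparison with the largest change (mean log2 CPM 0 or more), and the 5 genes most correlated with Tdrd12 (offset 0.5 CPM, mean log2 CPM of at least 2). The members and lists were chosen with earlier results of these data known, so the counts of calls over them are not independent evidence. Lists were written from general knowledge, and 16 of their 114 genes had no row. Alternatives were DESeq2 1.42.0, its size factors, other filters, other sets of libraries in the fit, each replicate left out and a replicate block. They were applied to the lists after the data had been seen. Coordinates and UTRs come from GENCODE M21, promoters and microRNAs from RefSeq.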

Additional observations from a re-analysis of the deposited data

Results flagged for a closer look

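The difference of Dazl from its control was larger in Ago2KO_empty (1.42 against T6B_MUT) than in Ago2KO (0.47 against W), by 0.94 on the log2 scale (edgeR interaction, adjusted p 0.00105) and by 1.00 without Ago2KO_empty replicate 2 (0.000886). Ago2 itself was at 87.4, 166.5 and 45.6 CPM in Ago2KO_empty and at 39.8 to 43.6 CPM in Ago2KO. The plasmid also differs in Experiment 2, and genotype, plasmid and experiment cannot be told apart here. Piwil2 lay in opposite directions in the Trim71 groups, with every Trim71KO library below W (−0.23) and every Trim71KO_empty library above T6B_MUT (0.23). That difference was not tested.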

How the results depend on the processing

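Of the members' tested log2 values under the alternatives, 720 kept their direction and side of the threshold, 35 lost and 15 gained a call, and 15 changed sign, each of the last not called. The calls of Dazl in Ago2KO, Ago2KO_empty, Trim71KO_empty against Ago2KO_empty and the interaction, of Piwil2 in Trim71KO against Ago2KO and of Slc25a31 in Trim71KO_empty against Ago2KO_empty held under every alternative that was run. With a replicate left out, the count of members called ran from 1 to 2 in Ago2KO (3 with all libraries), from 0 to 3 in T6B_WT (4) and from 2 to 5 in Trim71KO against Ago2KO (4). In Ago2KO_empty it was 1, and 2 with the groups fitted alone or with all 21 libraries in 1 fit, Tdrd12 being the second. The cause was not tested. Over all genes, T6B_WT gave 3437 calls, 2045 without T6B_MUT replicate 1 and 5632 with the groups alone. Ago2KO_empty gave 6201, 3894 without T6B_MUT replicate 1 and 3923 without Ago2KO_empty replicate 1. The interaction gave 473, and 269 to 1634 over all alternatives. Of the list counts, 60 of those under alternatives moved by over 1.5 times, among them the piRNA genes lower in Trim71KO_empty against Ago2KO_empty (5, and 2 without Trim71KO_empty replicate 2 or with the groups alone). Without Trim71KO_empty replicate 1, Tdrd12 differed by −1.82 from T6B_MUT and −1.56 from Ago2KO_empty.

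Leaving out 1 library changed the sign of values near 0. The ranges that follow are over all alternatives. In Ago2KO against W, the log2 fold change of Sycp3 ran from −0.27 to 0.0242. In Ago2KO_empty against T6B_MUT that of Tdrd9 ran from −0.23 to 0.0899, of Mael from −0.0423 to 0.0868 and of Prdm1 from −0.0929 to 0.12. In T6B_WT against T6B_MUT that of Tdrd9 ran from −0.0242 to 0.27 and of Dppa3 from −0.17 to 0.0840. In Trim71KO_empty against Ago2KO_empty that of Prdm1 ran from −0.0267 to 0.15 and of Dppa3 from −0.66 to 0.0830.

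Replicate numbers are shared between groups, but same-numbered libraries did not deviate together: r ran from −0.64 to 0.64, and 10 of 27 pairs were over 0.1. With a replicate block, T6B_WT gave 3247 calls over all genes, 4 of them members, and Ago2KO 3831, 3 of them members. Depth limits Dppa3 (1 to 28 reads a library), which gave no value under the stricter CPM filter, nor did Tdrd9 in Experiment 1.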
